A study of Triticum aestivum with 4 samples.

Results

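The wheat genes described here encode Exo70 proteins, a subunit family of the exocyst. They are the 6 genes whose description in the authors' lists reads "Exocyst subunit Exo70 family protein". The lists hold 2811 genes and are taken to give regions with differing DNA methylation. Each of the 6 genes had 1 region, so they account for 6 of 3119 listed regions. Seeds of the winter wheat breeding line SE15, at 13.6% water and with 100 seeds per group, were either left untreated (control) or given ultrasound at 30 kHz and 70 W for 5 min, in open dishes 4 cm from the source. All seeds then germinated in the dark at 20 °C, and seedling DNA was taken on day 7 and converted with enzymes for sequencing. The design text speaks of 3 biological samples per group, the labels name 2 libraries per group, and the lists give the methylation level in percent in 1 library of each, ultrasound library 1 (the treated library) and a library taken as control library 1, whose column letter the labels do not explain. Each level is therefore a single measurement without a replicate, no test between the groups was possible, and how many reads support a level is unknown. Below, "lower" and "higher" describe the ultrasound library against the control library, and a difference is ultrasound minus control in percentage points.

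The exocyst is a complex of several subunits that tethers secretory vesicles to the plasma membrane before they fuse. Exo70 is the subunit that, with Sec3, holds the complex to the membrane by binding phosphoinositide lipids, so it helps to set where cell wall material and membrane proteins are delivered. Animals and yeast generally have a single Exo70 gene, whereas land plants carry a large family. In Arabidopsis EXO70A1 acts in polar growth and in xylem development, and in cereals Exo70 genes and Exo70 domains fused to immune receptors are known from pathogen resistance. Plant DNA is methylated at cytosines in the symmetric contexts CpG and CHG and in the asymmetric context CHH (H being any base but G). CpG methylation is copied at replication by MET1, CHG methylation is kept mainly by CMT3, and CHH methylation is placed anew by the RNA-directed pathway and by CMT2. CpG methylation is also common inside the bodies of expressed genes, while CHG and CHH methylation lie mostly in repeats and transposons.

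The Exo70 genes did not move as one group. The region was lower after ultrasound at 4 genes and higher at 2. That is 66.7% lower, with a 95% exact binomial interval of 22.3 to 95.7 that covers counting error over regions only. Of all 2705 listed regions with both levels, 76.8% were lower, and 6 regions are too few to tell the Exo70 share from that. The median difference over the 6 regions was -13.3 points, against -10.1 points over all listed regions. The mean was -8.05 points and the median over the 3 regions that overlap their gene -5.04 points, both on the other side of that value. The contexts are also mixed unlike, with 2 Exo70 regions in each, but 480 CpG and 1557 CHG regions among the 2705. Median differences over listed regions were -18.3 points in CpG, -8.87 in CHG and -11.2 in CHH, so the medians over mixed contexts are not like for like. The differences ran from -23.9 to 15.3 points (SD over the 6 regions 17.6). A difference of at least 10 points was found at 4 of the 6, where 69.1% of all listed regions passed that size. None reached 25 points, where 17.2% of all listed regions did. The lists are taken as the authors' selection of differing regions, since their names carry "Chi" and "EdgeR", but the rule is unknown. Some listed regions hardly differed, such as a CHG region of TraesCS1D02G123200 at 23.9% in the control and 24.1% in the treated library. Others had no level in either library. These counts therefore describe listed regions and not the Exo70 genes of the genome.

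**Figure D1:**
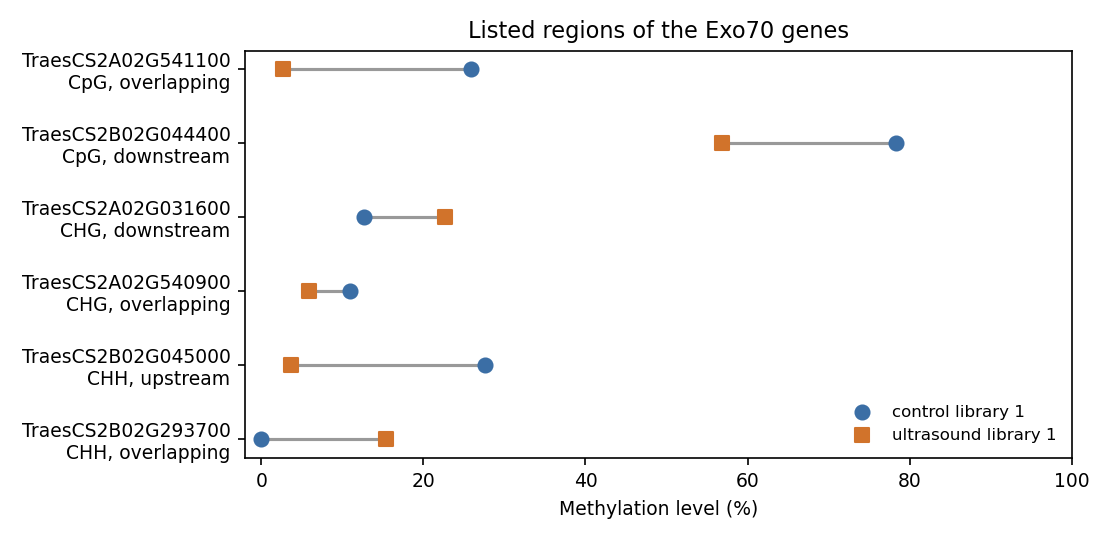
Methylation level in percent (x axis) of the listed region of each Exo70 gene (y axis, with its sequence context and its place relative to the gene) in control library 1 (circles) and ultrasound library 1 (squares), 1 library each. The line between the symbols is the difference, which ran leftwards at 4 genes and rightwards at TraesCS2A02G031600 and TraesCS2B02G293700.

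The 6 genes were spread evenly over contexts, with 2 in CpG, 2 in CHG and 2 in CHH. None was listed in more than 1 context, as was the case for most genes, since 180 of the 2811 listed genes (6.40%) were. All 6 regions had a level in both libraries, which 86.7% of all listed regions had. The region overlapped the gene at 3 members, lay downstream at 2 and upstream at 1. Over all listed regions 51.1% overlapped their gene, 25.7% lay downstream and 23.1% upstream. Region lengths ran from 422 to 1198 bp. They followed the context, being 785 and 784 bp in CpG, 1105 and 1198 bp in CHG and 422 and 451 bp in CHH, where all listed regions had medians of 974.5, 1364 and 343 bp. The lists place a region relative to the whole gene and do not say whether it touches an exon, an intron or a UTR.

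In CpG both Exo70 regions were lower. The region overlapping TraesCS2A02G541100 (chromosome 2A, 752767299 to 752768083, gene on the plus strand) had a level of 25.9% in the control and 2.73% in the treated library. The region was nearly unmethylated in the treated library, a difference of -23.2 points, with a control level 9.51 times the ultrasound level. That ratio is uncertain, since the depth behind the 2.73% is unknown. The ultrasound level of the region was below that of most listed CpG regions, as 14.2% of the others had a lower one. A level under 5% in at least 1 library was found at 28.5% of listed CpG regions. The 31 others with a control level within 5 points had a median ultrasound level of 5.17%. Downstream of TraesCS2B02G044400 (chromosome 2B, 21780380 to 21781163, 1248 bp from a gene on the minus strand), the level was 78.4% in the control and 56.9% in the treated library. This region stayed well methylated, and its difference of -21.5 points was close to that of the first gene although its control level was far higher. Of all listed CpG regions 71.7% were lower, and the median difference was -18.3 points, so both Exo70 regions lay near the middle of the list. Of the other CpG regions, 36.7% had a more negative difference than TraesCS2A02G541100 and 41.3% a more negative one than TraesCS2B02G044400.

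In CHG the Exo70 genes went opposite ways. The region overlapping TraesCS2A02G540900 (2A, 752747730 to 752748927, plus strand) had a level of 10.9% in the control and 5.90% in the treated library. Its difference of -5.04 points was among the small ones, since 11.8% of the other listed CHG regions had a smaller absolute difference. Downstream of TraesCS2A02G031600 (2A, 14573175 to 14574279, 1524 bp from the gene, plus strand), the level was 12.7% in the control and 22.7% in the treated library, or 1.78 times as high. The control levels of both regions were thus close to each other, and the ultrasound levels fell on either side of them. An increase was the less common direction in CHG, where 78.2% of listed regions were lower with a median difference of -8.87 points. The difference of 9.99 points at TraesCS2A02G031600 exceeded that of 83.4% of the other listed CHG regions, while its absolute size exceeded that of 39.5% of them.

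In CHH the Exo70 genes also went opposite ways, and each was nearly unmethylated in one library. Upstream of TraesCS2B02G045000 (2B, 22005204 to 22005625, 1051 bp from a gene on the minus strand), the level was 27.6% in the control and 3.69% in the treated library. The difference of -23.9 points was the most negative of the 6 genes, and 11.5% of the other listed CHH regions had a more negative one. Its control level was high for CHH, above that of 90.7% of the other listed regions. In the region overlapping TraesCS2B02G293700 (2B, 409662181 to 409662631, minus strand), the level was listed at 0% in the control and at 15.3% in the treated library. Its depth is unknown, so how much methylation a listed 0% allows cannot be given, and no ratio was formed. The difference of 15.3 points exceeded that of 89.8% of the other listed CHH regions, while its absolute size exceeded that of 55.8% of them. Of all listed CHH regions 77.1% were lower, with a median difference of -11.2 points. A level under 5% in at least 1 of the libraries was the rule among listed CHH regions, with 652 of 668 (97.6%), and both Exo70 regions belonged to them. All 49 CHH regions listed at 0% in the control library, TraesCS2B02G293700 included, were higher in the ultrasound library, which a control level of 0% makes the single possible direction.

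**Figure D2:**
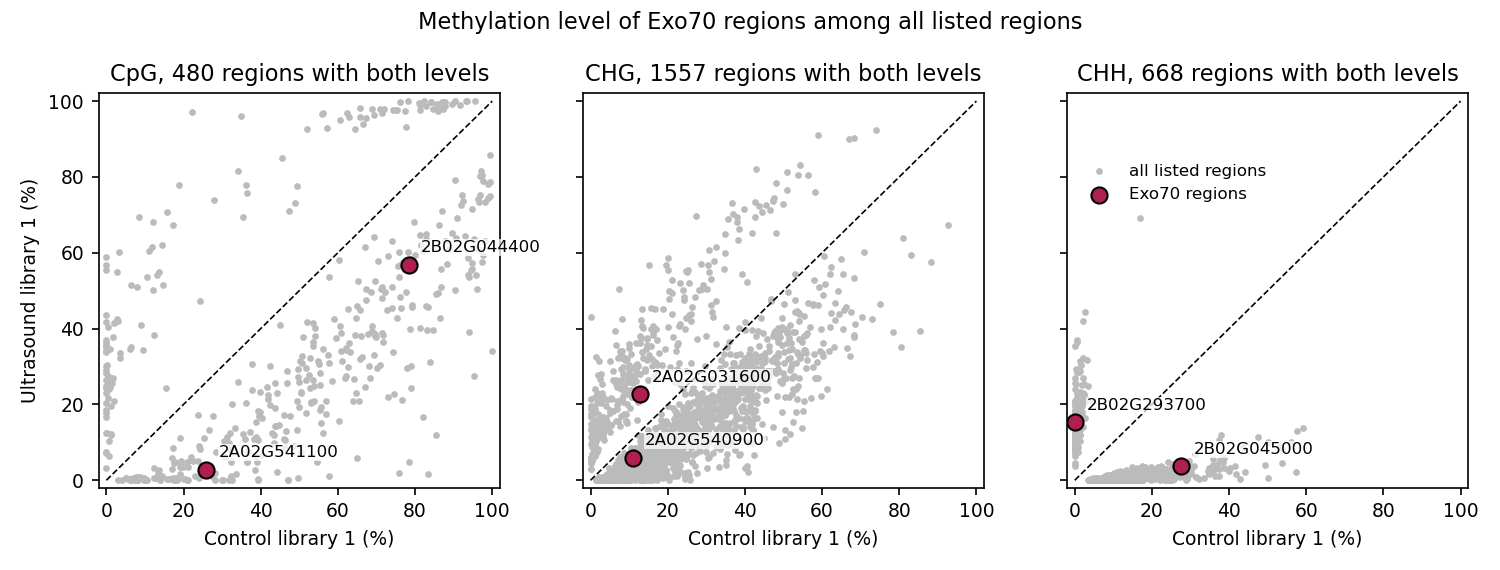
Methylation level in percent in control library 1 (x axis) and ultrasound library 1 (y axis) of every listed region with both levels (grey) and of the Exo70 regions (red), 1 panel per context; the dashed line marks equal levels. The Exo70 regions lie within the clouds of listed regions, with TraesCS2A02G031600 and TraesCS2B02G293700 above the line.

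Set beside listed regions that started from a similar level, 5 of the 6 Exo70 genes lay near the median difference, the farthest at -3.11 points from it. How many of all listed regions lie as near their own median was not counted, so this count is a description only. For each gene the comparison took the other listed regions of the same context whose control level lay within 5 points, a window chosen after the values were seen. Since listed regions are taken as selected for differing, a control level near 0 leaves mostly increases and a high CHH control level mostly decreases. In CHH, 97.6% of listed regions were under 5% in at least 1 library, so the control level largely sets the size too. Likeness in direction or size is thus partly built into this comparison and supports nothing. TraesCS2B02G044400, at -21.5 points, met a median of -21.6 points over 49 such regions, and TraesCS2B02G045000, at -23.9 points, a median of -24.2 points over 73, all of them lower. TraesCS2A02G541100, at -23.2 points, met a median of -20.1 points over 31 regions. TraesCS2B02G293700, at 15.3 points, started from 0%, and 151 of 166 CHH regions with a control level of at most 5% were higher, with a median of 13.9 points. TraesCS2A02G540900, at -5.04 points, met a median of -6.19 points over 443 regions. TraesCS2A02G031600 went the less common way, as 334 of 433 comparable CHG regions were lower, with a median of -7.02 points. Its 9.99 points lay 17.0 points above that. An increase was not rare there, as 99 of the 433 (22.9%) were higher and 89 had a higher difference.

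By position the 6 genes fell into 4 places, 3 genes on chromosome 2A and 3 on 2B, which together held 11.9% of all listed regions and 59 of the 441 genes with a description. No listed gene described as Exo70 lay on 2D, the third chromosome of that group in hexaploid wheat, where 36 listed genes carried a description; unlisted genes and listed genes without a description were not analysed here. TraesCS2A02G540900 and TraesCS2A02G541100 formed a close pair, with 18.4 kb between their regions and no listed region in between. Both were lower, one in CHG from a low level and the other in CpG. TraesCS2B02G044400 and TraesCS2B02G045000 formed a wider pair, with 224 kb between their regions and again nothing listed in between. Both were lower by more than 20 points, one in CpG and the other in CHH. TraesCS2A02G031600 and TraesCS2B02G293700, the higher ones, lay alone, 738 Mb and 388 Mb from the nearest Exo70 region on their chromosome. Of 170 pairs of consecutive listed regions of different genes within 25 kb, 161 had the same direction, with 160 both lower. Within 250 kb it was 237 of 289, with 229 both lower. The Exo70 pairs were counted among these, and the longest run of regions at most 25 kb apart held 19 genes, so runs weigh heavily. Since 76.8% of all listed regions were lower, many pairs share a direction whatever their distance. The share that this alone would give was not computed. Neighbours are also read in the same pair of libraries, so a shared direction is no independent check.

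The listed neighbours within 1 Mb were few and carried no description. TraesCS2A02G031600 had 1, an overlapping CpG region of TraesCS2A02G031500 at a distance of 43.5 kb, with 1.28% in the control and 12.1% in the treated library. It was higher like the Exo70 region, by 10.8 points. The pair on 2B had 4 listed regions of 3 genes within 1 Mb, all on the same side. The nearest overlapped TraesCS2B02G045100, 12.1 kb from the region of TraesCS2B02G045000, and had a CHH level of 11.7% in the control and 0.897% in the treated library. The next overlapped TraesCS2B02G045400, where the CHH level was 16.0% and a listed 0%. A CpG region overlapping TraesCS2B02G045600 was at 20.8% and 0.137%, and a CHG region of that gene had no level in the ultrasound library. Every neighbour of the 2B pair within 1 Mb that had both levels was thus lower, like both Exo70 regions. This was the common direction there, as 82.7% of all listed 2B regions with both levels were lower. Over all members, 3 of the 4 neighbouring regions with both levels within 1 Mb were lower, beside 76.8% of all listed regions.

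Farther out, the surroundings and the Exo70 regions did not always share a direction. The pair on 2A had no listed neighbour within 1 Mb. The nearest, a CpG region of TraesCS2A02G537000 at 1.79 Mb, had no level in either library, and on the other side an ATP synthase subunit alpha gene (TraesCS2A02G547200) at 2.73 Mb, which carries the name of a mitochondrial or plastid ATP synthase part, was at 93.8% and 58.6% in CpG. TraesCS2B02G293700 had listed regions of a single gene within 5 Mb, TraesCS2B02G296300 at 3.78 Mb, which was lower in CpG (12.5% and 0.583%) and in CHG (11.9% and 1.09%) where the Exo70 region was higher in CHH. Around TraesCS2A02G031600, 8 of 11 regions with both levels within 5 Mb were lower, and the CHG region overlapping TraesCS2A02G036300 at 1.03 Mb was higher, at 24.3% and 48.2%. Within 5 Mb of any Exo70 region, 18 of 21 regions with both levels were lower, or 85.7% (63.7 to 97.0). The interval does not separate this share from the 76.8% of all listed regions. Some of the 21 regions share a gene, such as those of TraesCS2A02G046900 and of TraesCS2B02G296300. The interval takes regions as independent and may be too narrow.

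**Figure D3:**
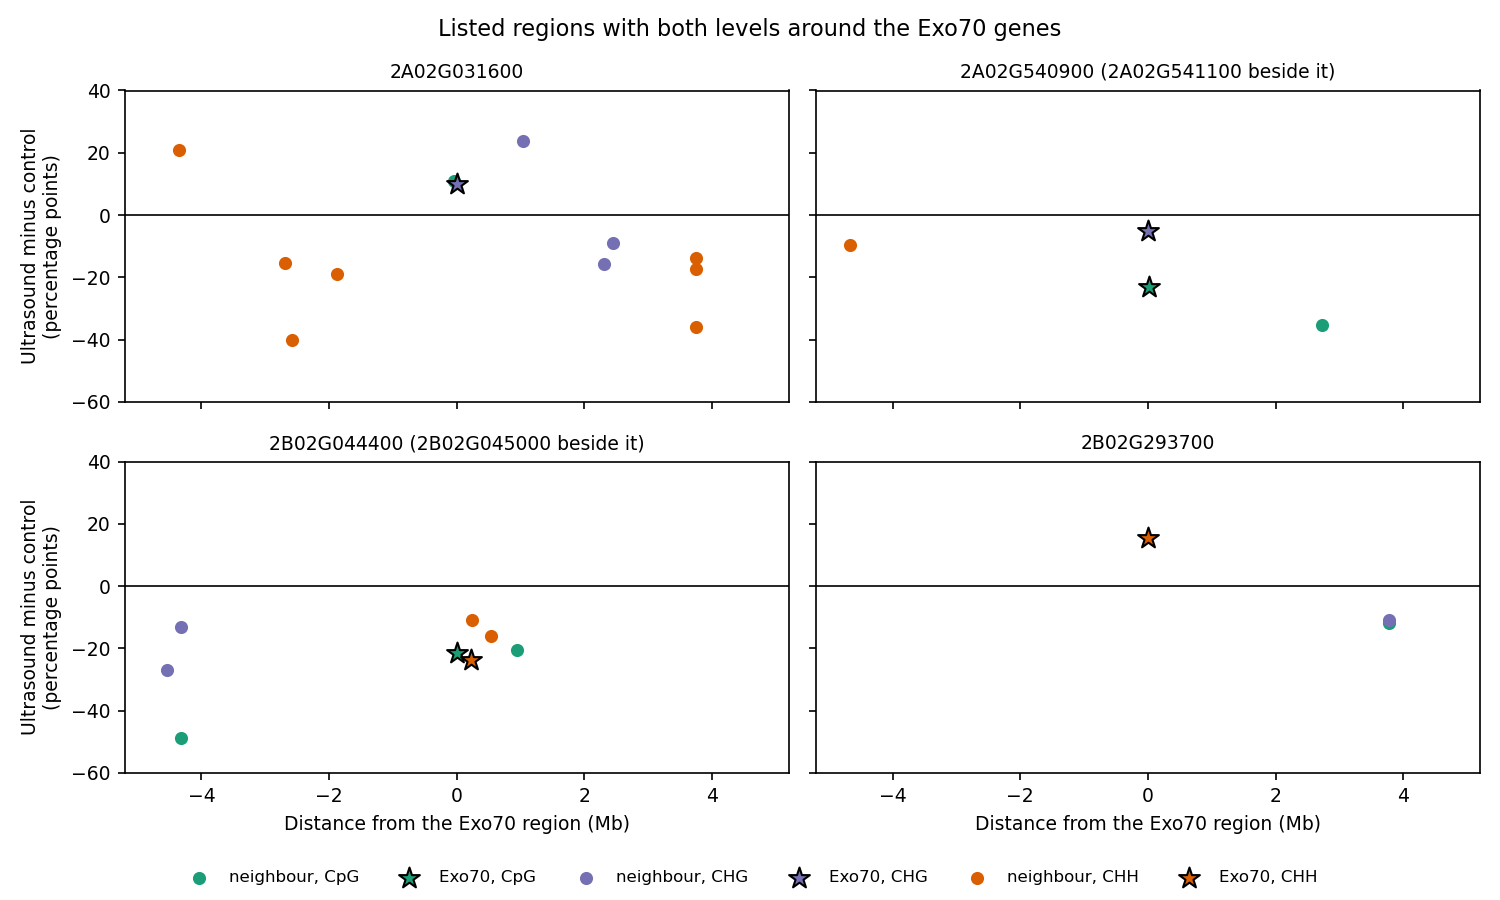
Difference in methylation level, ultrasound minus control in percentage points (y axis), against the distance in Mb from the Exo70 region (x axis) for the Exo70 regions (stars) and the listed neighbouring regions with both levels (circles), coloured by context, 1 panel per place. Both Exo70 regions of the 2B pair and all their neighbours lie below 0, and TraesCS2B02G293700 lies above 0 with a single neighbouring gene, below 0. Of all listed 2B regions with both levels, 82.7% were lower.

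Other genes of vesicle traffic were matched by words in their descriptions, which gave 10 genes with 1 region each on 9 chromosomes. Of these 6 were lower and 4 higher, or 60% lower (26.2 to 87.8), with a median difference of -4.03 points. Over all listed regions 76.8% were lower, and the median difference was -10.1 points. The interval rests on 10 regions and is too wide to tell the shares apart. The mix of contexts differed here too, with 1 vesicle traffic region in CpG, 4 in CHG and 5 in CHH. With a minimum difference of 10 points, 7 were left, of which 3 were lower, or 42.9% (9.90 to 81.6). Among all listed regions of that size 73.1% were lower. So wide an interval cannot decide whether these shares differ, and it takes regions as independent. The list was drawn up with earlier results of these data known. One further exocyst subunit was among them, SEC6 (TraesCS6D02G284400, 6D, 391930689 to 391931983), which was 5.68% methylated in CHG over the gene in the control and 21.6% in the treated library. A gene described as VAMP-like (TraesCS3B02G410300), a name for SNARE proteins that drive the fusion of vesicles, had a CHG level of 11.7% and 29.0% over the gene. Both were higher, while the other 2 vesicle traffic genes listed in CHG were lower, beside 78.2% lower among all listed CHG regions. The 2 Exo70 genes in CHG were also split, but so few regions cannot show a likeness.

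Among the lipid kinases, a phosphatidylinositol 4-phosphate 5-kinase gene (TraesCS4A02G271600), which makes the lipid that Exo70 binds, had a CHH level of 12.3% in the control and 1.63% in the treated library, 2270 bp downstream. The phosphatidylinositol 3-kinase gene VPS34 (TraesCS5A02G054400), which acts in endosome and vacuole traffic, went the other way, at 2.25% and 27.0% in CHH. This was one of the larger CHH increases, above 97.5% of the other listed CHH regions. At the Golgi, golgin candidate 6 (TraesCS5B02G100400), of a family of tethers, was at a listed 0% and 34.1% in CpG over the gene. Golgin candidate 2 (TraesCS2B02G536000) was at 11.3% and a listed 0% in CHH, and a COG complex component gene (TraesCS7B02G372700), from another tethering complex, at 8.40% and 0.133%. Coatomer subunit beta' (TraesCS6B02G206500), a part of the coat of vesicles that return to the endoplasmic reticulum, was at 18.7% and 2.88% in CHH, the AP-3 complex subunit delta gene (TraesCS1A02G211900), of an adaptor for vacuolar cargo, at 13.7% and 7.06% in CHG, and coatomer subunit alpha (TraesCS5A02G540800) at 1.44% and a listed 0% in CHG.

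**Figure D4:**
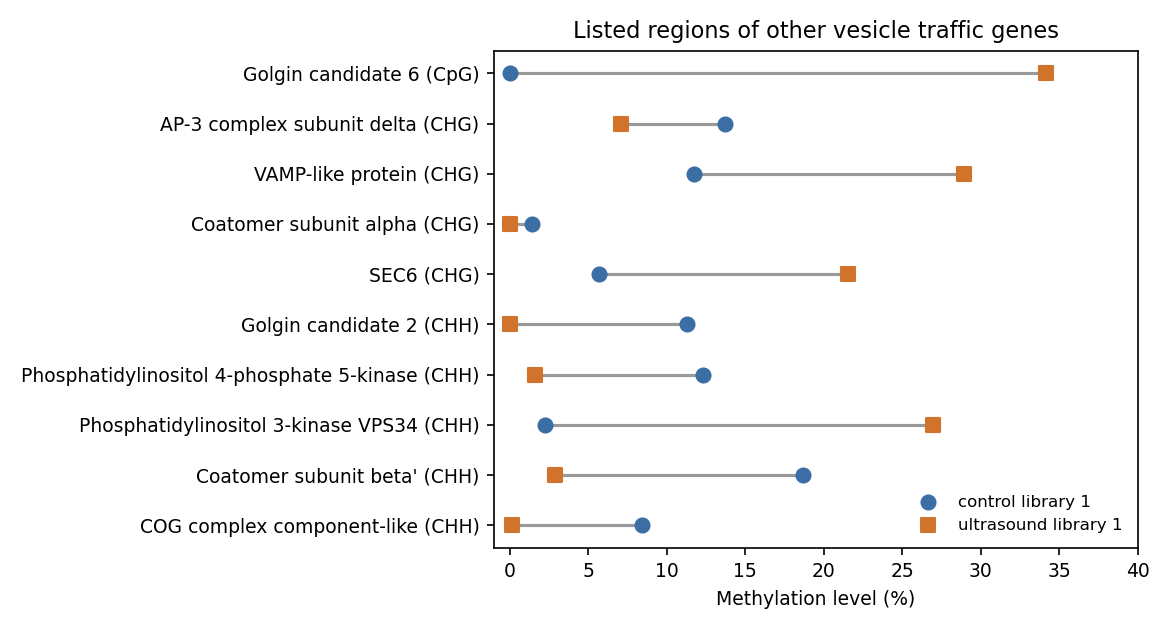
Methylation level in percent (x axis) of the listed region of the 10 other vesicle traffic genes (y axis, named by description with the context) in control library 1 (circles) and ultrasound library 1 (squares), 1 library each. The level was higher after ultrasound for golgin candidate 6, the VAMP-like gene, SEC6 and VPS34, and lower for the other genes.

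The described gene with the most similar pair of levels in the same context was sought for each Exo70 region, by the distance in percentage points over the 2 libraries. For TraesCS2B02G293700 it was a SUPPRESSOR OF QUENCHING 1 gene (TraesCS4B02G181000), at 0.202% in the control and 15.1% in the treated library, a distance of 0.277 points among 105 CHH regions. For TraesCS2A02G540900 it was a gene described as KC1 (TraesCS3D02G246300), at 10.6% and 6.11%, with a distance of 0.373 points among 231 CHG regions. TraesCS2B02G045000 was nearest to a proteasome subunit beta gene (TraesCS1B02G443900), at 26.4% and 2.74%. TraesCS2B02G044400 was nearest to a gene for a 26s proteasome regulatory subunit (TraesCS3A02G183700), at 79.5% and 57.9%, with a distance of 1.58 points among 62 CpG regions. The least close matches were those of TraesCS2A02G541100, with a WRKY transcription factor gene (TraesCS5D02G190800) at 22.4% and 5.17%, and of TraesCS2A02G031600, with a class V heat shock protein gene (TraesCS2B02G247300) at 14.9% and 26.4%, at distances of 4.30 and 4.27 points. With a single library per group, such a likeness rests on a pair of values.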

How the data were processed

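Seedling DNA was converted enzymatically, per the labels' protocols, although the library titles read WGBS. The tools named, without roles, per the submitters' processing notes were Bismark 0.23.1, edgeR, Trim Galore 0.6.7 and FastQC 0.11.9. The authors deposited 3 lists (CpG, CHG, CHH) of regions, taken here as selected, with a methylation level in percent per library, per their headers. The sources used here give no genome build, definition of a region, threshold or coverage. Coordinates are those of the lists.

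The control column was assigned by elimination; if that were wrong, every control value would be wrong. Libraries numbered 2 were not analysed here. Differences, shares with exact Clopper-Pearson intervals and medians were computed with Python 3.11.15, pandas 2.3.3 and scipy 1.17.1, after the functions had been tested on simulated data. Regions lacking a level (414 of 3119) were left out of directions and medians.

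The members and lists were chosen with earlier results of these data known. Named were all members and all listed neighbours within 1 Mb, where the plan had been the nearest and any described ones. Also named were all vesicle traffic genes (41 words matched in descriptions) and the most similar described gene per member. Neighbours beyond 1 Mb were named after their values were seen. Alternatives tried were overlapping regions only, means, other neighbour windows, counting each gene once, and leaving out differences under 10 or 25 points. The reference gene table held 0 of the 6 identifiers.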

Additional observations from a re-analysis of the deposited data

How the results depend on the processing

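No paired analysis was possible because the lists hold 1 library per group. Leaving out a library was not possible for the same reason. The share of Exo70 regions that were lower was 66.7% as reported, with each gene counted once and among the 3 regions that overlap their gene, and 75% among the 4 that differed by at least 10 points; none differed by 25 points, so that setting gave no value. The median difference of -13.3 points was -5.04 points over the overlapping regions and the mean was -8.05 points, so it depends on both choices. The share of neighbours that were lower was 50% of 2 within 100 kb, 75% of 4 within 1 Mb and 85.7% of 21 within 5 Mb. The share of vesicle traffic regions that were lower was 60%, and 42.9% among those that differed by at least 10 points, so their majority changed sides. Each share lay within the interval of the one reported, which decides little, as those intervals are wide. The unknown depth limits every level, most of all those listed at 0%.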

Other observations

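Among descriptions carried by at least 5 listed genes, of which there were 11, the Exo70 description and that of RING-type E3 ubiquitin transferases, with 5 genes, each sat on 2 chromosomes, the fewest of the 11. The 13 genes described as peroxidase were on 9 chromosomes and the 9 hexosyltransferase genes on 7. The Exo70 genes were 1.36% of the genes with a description. These values depend on which genes the lists describe, and no comparison with the gene content of the chromosomes was made.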
